A study of Mus musculus with 28 samples.

Results

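Gene expression in frontal cortex was compared between 6 mice with induced type 2 diabetes (T2D) and 6 control mice (T2D_control), all male C57Bl/6. These are 12 of the 28 libraries of the series, taken by their treatment label and title, and all 15054 genes of their count table were used. The T2D mice had been given 75 mg/kg of streptozotocin, which kills pancreatic beta cells, together with 21 weeks on a diet that supplied 43.2% of its energy as fat. The controls are labelled only as having been held in control conditions, and 5 mice of each group were 30 weeks old and 1 was 31 weeks old. Since every T2D mouse received both the toxin and the diet, their shares in any difference cannot be told apart, and blood glucose, insulin and body weight were not analysed here. The other 16 libraries, from 8 mice under chronic social stress (CSS, 7 weeks alone with 2 confrontations a day over the last 20 days) and 8 controls of their own (CSS_control), all 21 weeks old, were used only in the last comparison.

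Insulin and the insulin-like growth factors act through receptor tyrosine kinases, insulin receptor substrate adaptors, PI3-kinase and Akt, which in turn restrains the FOXO transcription factors and activates mTOR. In the brain this pathway bears on feeding, synaptic plasticity and neuronal survival, while most glucose enters across the endothelium through Slc2a1 and into neurons through Slc2a3, both of which work without insulin. Streptozotocin lowers insulin output and a high-fat diet lowers the response of tissues to insulin, so that both together give a raised blood glucose.

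The libraries held 14.3 to 22.7 M estimated counts in T2D and 12.1 to 21.6 M in control. The RNA integrity number was 9.05 ± 0.235 in T2D and 9.37 ± 0.509 in control (SD, n = 6 each, two-sided exact permutation p = 0.225, adjusted p = 0.450 over 6 library values). All 17 markers of excitatory cortical neurons were measured, with a summed level of 1730 to 3086 CPM (counts scaled to library size) in T2D and 2250 to 2885 CPM in control. Several libraries stood apart in markers of neighbouring tissue. T2D 3 carried genes of the olfactory bulb (Cdhr1 at 50.2 CPM, no more than 9.14 in any other library), and T2D 4 had the lowest striatal score of the 12 (−1.34) and the highest level of the meningeal gene Dcn (36.9 CPM). The choroid plexus gene Ttr was at 347 CPM in T2D 1, 330 in T2D 4 and 293 in T2D_control 3, at 25.8 in T2D_control 2 and at 5.08 or less in the other 8. For named genes at an unadjusted p under 0.05, the value without T2D 3 and T2D 4 is given where the log2 change moved by over 1.5 times.

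No gene passed the test of T2D against control. With edgeR's quasi-likelihood test and Benjamini-Hochberg adjustment, 0 of 15054 genes (0%) passed the threshold of 0.05, and the smallest adjusted p was 0.825. Before adjustment, 879 genes (5.84%) had a p under 0.05, 447 of them higher in T2D (2.97%) and 432 lower (2.87%), beside 752.7 expected if no gene differed. Below 0.001 there were 13 genes, beside 15.054 expected. Positive and negative changes were evenly divided, with 50.8% of the genes above 0 and a median log2 change of 0.0021. limma's voom test also called 0 genes, with 814 at an unadjusted p under 0.05.

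DESeq2 called 4 of 15048 genes (0.0266%): Sh3bgrl2 (adjusted p = 0.00505), Tpm2 (0.0294), Arhgap25 (0.0374) and Gnb4 (0.0458), with 981 genes at an unadjusted p under 0.05. None of these 4 passed in any of the edgeR or limma fits that were run. The count of unadjusted p under 0.05 depended on single libraries: it was 1817 without T2D 1, 1481 without T2D_control 3, 580 without T2D 5 and 554 without T2D_control 6. Without the 3 libraries of highest Ttr it was 2486 and the smallest adjusted p was 0.0645, so that 0 genes passed there too.

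**Figure D1:**
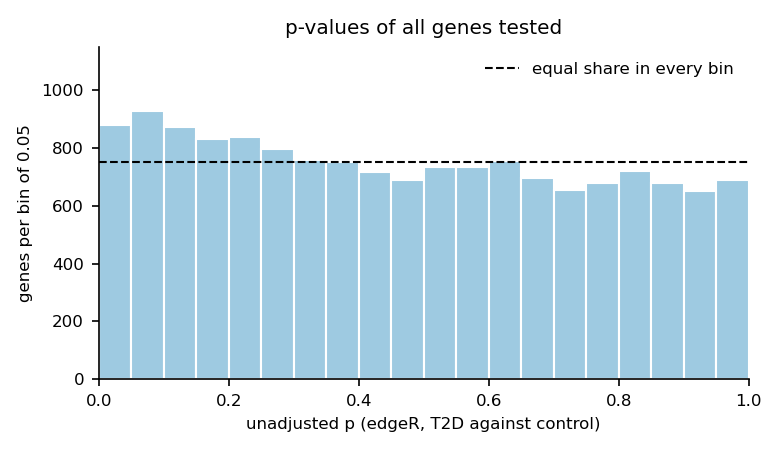
Number of genes (y axis) in each bin of 0.05 of the unadjusted edgeR p (x axis) for T2D against control; the dashed line is the 752.7 genes per bin expected if no gene differed. The first bin holds 879 genes, and the bars decline slowly with no peak at low p.

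The precision of the comparison is given next by the intervals of single genes. They do not say what size of change would have passed the adjusted test. The 95% interval of a gene's log2 change, unadjusted for the number of genes, had a median half-width of 0.257, which corresponds to 1.19-fold. For 75.2% of the genes the whole interval lay within 1.5-fold of no change in either direction, and for 93.5% within 2-fold. The biological coefficient of variation between libraries was 18.4% in this cohort and 14.4% in the cohort of stressed mice.

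The genes of smallest p are described next, by a rule that takes the 12 of smallest p in each direction whose mean log2 CPM reached 1, and none of them passed over all genes (adjusted p = 0.825 for all 24). Among those higher in T2D were Sh3bgrl2, Tpm2 and Npr1, and among those lower were Arhgap25, Fam107a and Gadd45a. In 22 genes of the table (0.146%) the 6 T2D libraries did not overlap the 6 control libraries, 9 with T2D above (0.0598%) and 13 with T2D below (0.0864%). If no gene differed, a gene would separate in this way with a probability of 0.00216 (exact permutation, 6 against 6), which is above the share seen. For genes picked by p from the same values, a lack of overlap is no separate result.

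Sh3bgrl2 (ENSMUSG00000032261, chromosome 9, 83548327 to 83638801, GRCm38/mm10) encodes a small protein with a thioredoxin-like fold. Its level was 36.9, 38.6 and 46.4 CPM (lowest, median and highest) in T2D and 26.4, 29.0 and 32.5 CPM in control. All 6 T2D libraries lay above all 6 control libraries, with T2D 3 the highest. The log2 change was 0.44 ± 0.08 (SE, 95% interval 0.27 to 0.61), or 1.36-fold, at an unadjusted p of 6.31e-05, the smallest of the table.

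Several further genes in this direction code for signalling and cytoskeletal proteins. Tpm2 (chromosome 4, 43514711 to 43523765), the beta-tropomyosin of actin filaments, was at 5.23, 6.17 and 7.63 CPM in T2D and 3.09, 3.73 and 4.44 CPM in control, with no overlap (log2 0.75 ± 0.15). Gnb4 (chromosome 3, 32580332 to 32616585), a G protein beta subunit, was at 40.9, 51.4 and 67.0 CPM against 30.0, 35.5 and 41.8 CPM, and 5 of 6 T2D libraries lay above every control (log2 0.55 ± 0.12). Npr1 (chromosome 3, 90450591 to 90465866), the guanylate cyclase receptor of cardiac natriuretic peptides, was at 2.20, 3.59 and 5.09 CPM against 0.819, 1.33 and 2.12 CPM. Its groups did not overlap, and its log2 change of 1.26 ± 0.29 (2.39-fold) was the largest of the 24 genes.

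Bmp6 (chromosome 13, 38345107 to 38500302), a ligand of the bone morphogenetic protein family, was at 5.66, 7.97 and 9.12 CPM against 3.54, 4.51 and 5.63 CPM. The lowest T2D library was just above the highest control (log2 0.72 ± 0.17). Further genes of this direction were the transcriptional repressor Trps1 (log2 0.44), with 5 of 6 T2D libraries above every control, the sodium-proton exchanger Slc9a2 (0.89), the actin-binding Marcksl1 (0.48), the netrin Ntn3 (0.57), the Rac activator Tiam1 (0.51) and the secreted protein Tafa2 (0.60). In Tiam1 the groups crossed at both ends, since 5 T2D libraries lay above every control and 1 below every control, and its log2 change was 0.30 without T2D 3 and T2D 4.

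Of the genes lower in T2D, Arhgap25 (chromosome 6, 87458545 to 87533259), a GTPase-activating protein of Rac, had the smallest p. It was at 3.9998, 7.77 and 11.9 CPM in T2D and 12.7, 15.6 and 21.0 CPM in control, without overlap (log2 −1.01 ± 0.22, 95% interval −1.48 to −0.54). Fam107a (chromosome 14, 8296274 to 8318023), a stress-responsive actin-bundling protein and a target of the glucocorticoid receptor, was at 172, 191 and 273 CPM against 235, 277 and 359 CPM. The T2D value of 273 CPM was that of T2D 3, and the other 5 lay below every control (log2 −0.51 ± 0.12, and −0.63 without T2D 3 and T2D 4).

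Arhgap26, which encodes another GTPase-activating protein, had close replicates, at 142, 159 and 176 CPM in T2D and 183, 190 and 205 CPM in control (log2 −0.27 ± 0.06). Eri1 (chromosome 8, 35465253 to 35496196), an exonuclease that acts on histone mRNA, was at 12.6, 15.1 and 18.5 CPM against 18.7, 20.3 and 24.1 CPM (log2 −0.43 ± 0.11). Pet100 (chromosome 8, 3621548 to 3625848), an assembly factor of respiratory complex IV, was at 10.51, 12.1 and 12.7 CPM against 13.8, 14.9 and 16.8 CPM (log2 −0.33 ± 0.09). The groups did not overlap in any of these 3 genes. Exons of Pet100 overlapped the opposite-strand gene Pcp2 in 52.6% of their bases, and although the library kit keeps strand, per the labels, whether the counting used it is not given in the sources used here, so its value is uncertain.

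The other 7 of this direction included the G protein chaperone Pdcl (log2 −0.34), the inhibitory synapse adhesion gene Igsf9b (−0.40), the hyaluronan receptor gene Layn (−0.93) and the mitotic cyclin gene Ccnb1 (−0.98). Gadd45a, a gene of the DNA damage response, was at 2.88, 3.50 and 4.67 CPM in T2D and 4.19, 5.65 and 8.32 CPM in control, and 5 of 6 T2D libraries lay below every control (log2 −0.69 ± 0.19). Cbwd1 (−0.36) and Slc35f6 (−0.39) complete the 12.

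**Figure D2:**
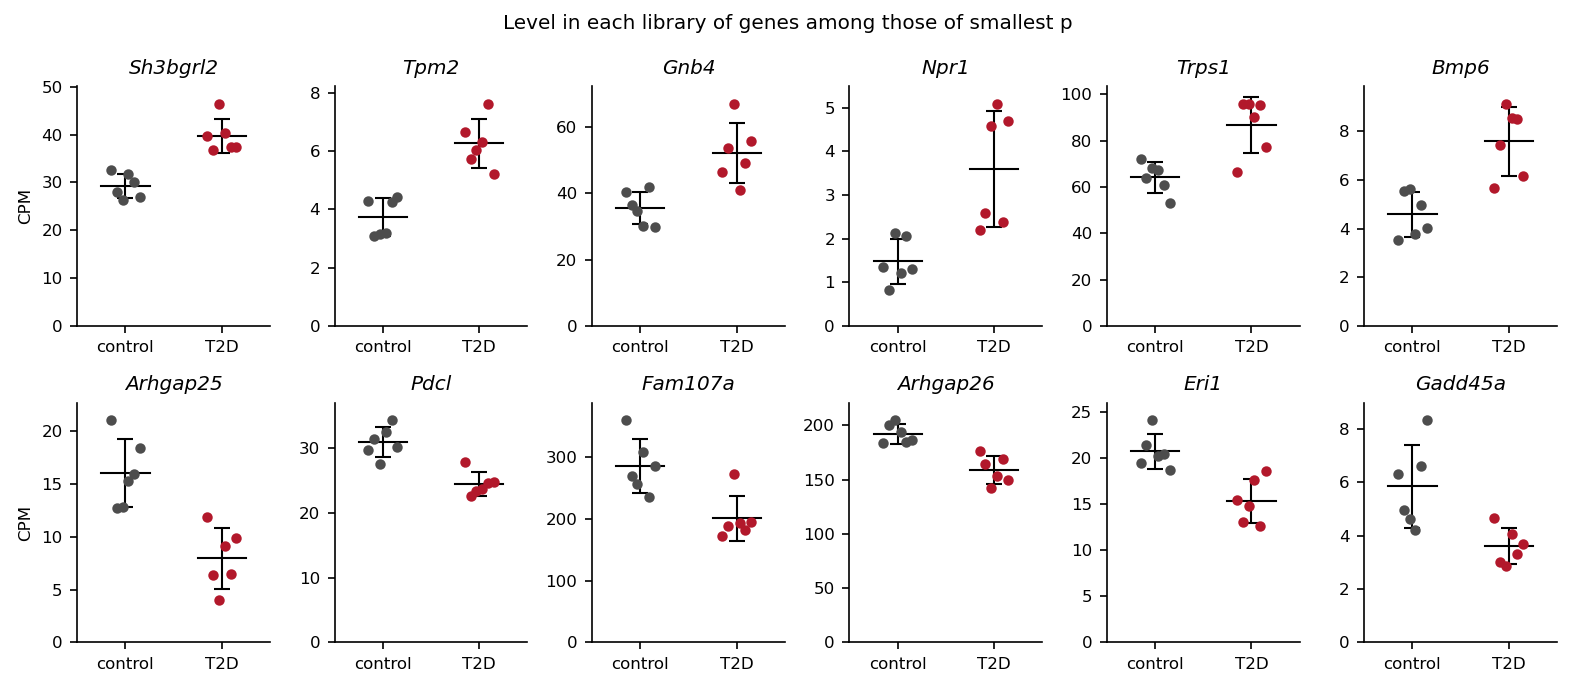
CPM (y axes, from 0) of 12 of the genes of smallest p in the 6 control and 6 T2D libraries; points are libraries, bars the mean and SD. The groups do not overlap in Sh3bgrl2, Tpm2, Npr1, Bmp6, Arhgap25, Arhgap26 and Eri1, and 1 library or more lies in the range of the other group in Gnb4, Trps1, Pdcl, Fam107a and Gadd45a.

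Genes of insulin and IGF signalling had small changes in both directions, and none passed. Of 37 listed genes 35 were measured. At an unadjusted p under 0.05 there were 3, all lower, where 2.87% of all genes were. Of the changes, 17 were positive and 18 negative. The median log2 change was −0.01, beside 0.0021 over all genes, and for 26 of the 35 the 95% interval lay within 1.5-fold. Irs3 and Trib3 are not in the table.

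Among the ligands, Igf1 was at 6.01, 6.82 and 12.2 CPM in T2D and 6.42, 6.97 and 8.17 CPM in control (log2 0.10, 95% interval −0.26 to 0.46). Igf2 had a log2 change of 0.43 (−0.11 to 0.97), and 62.8% of its exon bases are shared with another annotated gene on its strand, which makes its value uncertain. Of the receptors, Insr was at 91.6, 100.2 and 118 CPM against 85.8, 89.1 and 109 CPM (log2 0.14, −0.03 to 0.31). Igf1r was at 107, 118 and 134.1 CPM against 102.2, 118 and 127 CPM (0.04, −0.12 to 0.19). The groups overlapped for both receptors, with 2 T2D libraries of Insr and 1 of Igf1r above every control.

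Among the adaptors, Irs1 was at 30.4, 34.1 and 44.5 CPM in T2D and 31.6, 33.5 and 44.3 CPM in control (log2 0.03, −0.20 to 0.26). Irs2, the adaptor that insulin itself represses in liver, was at 46.1, 59.2 and 89.1 CPM against 53.1, 68.7 and 109 CPM (−0.22, −0.61 to 0.18). Downstream, Akt1 and Akt2, the kinases that carry the signal onward, had log2 changes of −0.06 (−0.21 to 0.08) and −0.12 (−0.32 to 0.08). Foxo1, a transcription factor that Akt excludes from the nucleus, had 0.38 (−0.13 to 0.90), and Tbc1d4, the Akt substrate that gates glucose transporter traffic, had 0.20 (−0.08 to 0.49).

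Among the members at an unadjusted p under 0.05 were Pik3ca, the catalytic subunit of PI3-kinase (log2 −0.27, −0.49 to −0.05) and Igfbp4, which binds IGFs in the extracellular space (−0.48, −0.96 to −0.01). Without T2D 3 and T2D 4 Igfbp4 had −0.27 and was no longer at an unadjusted p under 0.05. Pik3ca was at 93.9, 105 and 136 CPM in T2D and 109, 129 and 153 CPM in control. Igfbp4 was at 24.1, 35.5 and 69.0 CPM against 44.8, 60.3 and 76.0 CPM. In Pik3ca 3 and in Igfbp4 4 of the 6 T2D libraries lay below every control.

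All 26 genes of mTOR and AMPK signalling, which weigh nutrient supply against energy need, were measured, and 0 passed (3 lower at an unadjusted p under 0.05, median log2 0.02, 21 intervals within 1.5-fold). Mtor had a log2 change of 0.10 (−0.05 to 0.25). The 3 were Sesn2, a leucine sensor upstream of mTOR (−0.39, −0.66 to −0.12), the AMPK subunit gene Prkab2 (−0.21) and Stk11, the kinase that activates AMPK (−0.20). Sesn2 was at 7.23, 8.07 and 9.98 CPM in T2D and 9.20, 10.2 and 14.0 CPM in control, with 5 T2D libraries below every control.

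No gene of glucose transport or of the response to glucose passed. Of 13 hexose transporter genes 9 were measured; the insulin-regulated Slc2a4, Slc2a9, Slc5a1 and Slc5a2 are not in the table. Slc2a1, the transporter of the blood-brain barrier, was at 33.1, 42.1 and 47.9 CPM in T2D and 38.2, 43.1 and 57.2 CPM in control (log2 −0.09, −0.31 to 0.14). Slc2a3, that of neurons, was at 135, 145 and 169 CPM against 121, 152 and 173 CPM (0.00, −0.19 to 0.20). Of the list, Slc2a6 was at an unadjusted p under 0.05 (−0.22, −0.44 to −0.01), and the median was −0.01.

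Txnip, an inhibitor of thioredoxin whose transcription follows glucose in many tissues, was at 11.9, 14.9 and 19.8 CPM in T2D and 13.2, 15.995 and 22.0 CPM in control (log2 −0.07, −0.38 to 0.24). Mlxipl, which encodes the glucose-sensing factor ChREBP, had 0.45 (−0.05 to 0.95). Klf10, a glucose-responsive repressor, was the member of 13 at an unadjusted p under 0.05 (−0.53, −0.95 to −0.11), and the list had a median of 0.06. The intervals of Slc2a1, Slc2a3 and Txnip lay within 1.5-fold.

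Enzymes of glycolysis are given next. None of 21 passed or was at an unadjusted p under 0.05, 16 changes were negative and 5 positive, and the median was −0.06, with 20 intervals within 1.5-fold. Pfkfb3, which makes the activator of phosphofructokinase, had the smallest p (log2 −0.19, −0.40 to 0.03), the hexokinase gene Hk2 had −0.27 (−0.70 to 0.16) and the lactate dehydrogenase gene Ldha −0.14 (−0.38 to 0.11). Of 24 genes of glycogen, the pentose phosphate pathway and pyruvate control 0 were at an unadjusted p under 0.05 (median −0.02). Pdk4, the pyruvate dehydrogenase kinase that fasting and diabetes raise in muscle, was at 5.75, 6.59 and 9.62 CPM in T2D and 5.42, 7.12 and 10.0 CPM in control (−0.08, −0.45 to 0.29).

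Genes that respond to fatty acids are given next. Of 37 measured genes of fatty acid oxidation, ketone use and PPAR targets 0 passed, 1 was at an unadjusted p under 0.05, and the median was 0.02, with 28 intervals within 1.5-fold. Cpt1a, the gate of mitochondrial fatty acid entry, had a log2 change of 0.05 (−0.17 to 0.27). The PPAR target Angptl4 had 0.05 (−0.65 to 0.74), and the acyl-CoA thioesterase gene Acot1, the 1 member at an unadjusted p under 0.05, had −0.44 (−0.83 to −0.06). The fatty acid binding protein gene Fabp7 had 0.90 (−0.04 to 1.83), which was 0.17 without T2D 3 and T2D 4, and its highest value, 55.0 CPM, was that of T2D 3.

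In fatty acid and lipid synthesis 26 genes were measured (median 0.04), and 3 were at an unadjusted p under 0.05, where 5.84% of all genes were. The 3 were Mgll, which degrades the endocannabinoid 2-AG (log2 −0.29, −0.49 to −0.09), the lipogenic factor gene Thrsp (−0.40) and the triglyceride synthesis gene Dgat2 (0.26). Mgll was at 118, 124 and 130.9 CPM in T2D and 117, 152 and 179 CPM in control. The 6 T2D values of Mgll lay close together and inside the wider range of the controls.

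Of 30 genes of cholesterol synthesis and transport 28 had an interval within 1.5-fold, and the median was −0.04. At an unadjusted p under 0.05 there were 2, both higher, where 2.97% of all genes were. One of the 2 was Abca1, which exports cholesterol to apolipoproteins (log2 0.33, 0.04 to 0.63, and 0.22 without T2D 3 and T2D 4). Apoe, the main lipid carrier of the brain, had 0.13 (−0.17 to 0.42). For 29 of the 30 the interval lay within 2-fold.

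Mitochondrial and antioxidant genes are given next. All 52 measured nuclear genes of the respiratory chain and ATP synthase had an interval within 1.5-fold, with a median of 0.01 and changes from −0.11 to 0.14, and 0 were at an unadjusted p under 0.05. Of 34 antioxidant and glutathione enzymes 32 were within 1.5-fold (median −0.02), and Hmox1, the inducible heme oxygenase, had −0.31 (−0.71 to 0.08). The 13 mitochondrially encoded genes had a median of −0.00, none at an unadjusted p under 0.05 and 10 intervals within 1.5-fold. Their changes reached from −0.30 to 1.06, and 11 intervals lay within 2-fold. The log2 change of mt-Co2 lay between 0.83 and 1.61 over the alternatives run. Mitochondrial transcripts made up 6.89% ± 1.23 of the counts in T2D and 6.13% ± 0.756 in control (SD, n = 6 each, two-sided exact permutation p = 0.221, adjusted p = 0.450 over 6 library values).

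**Figure D3:**
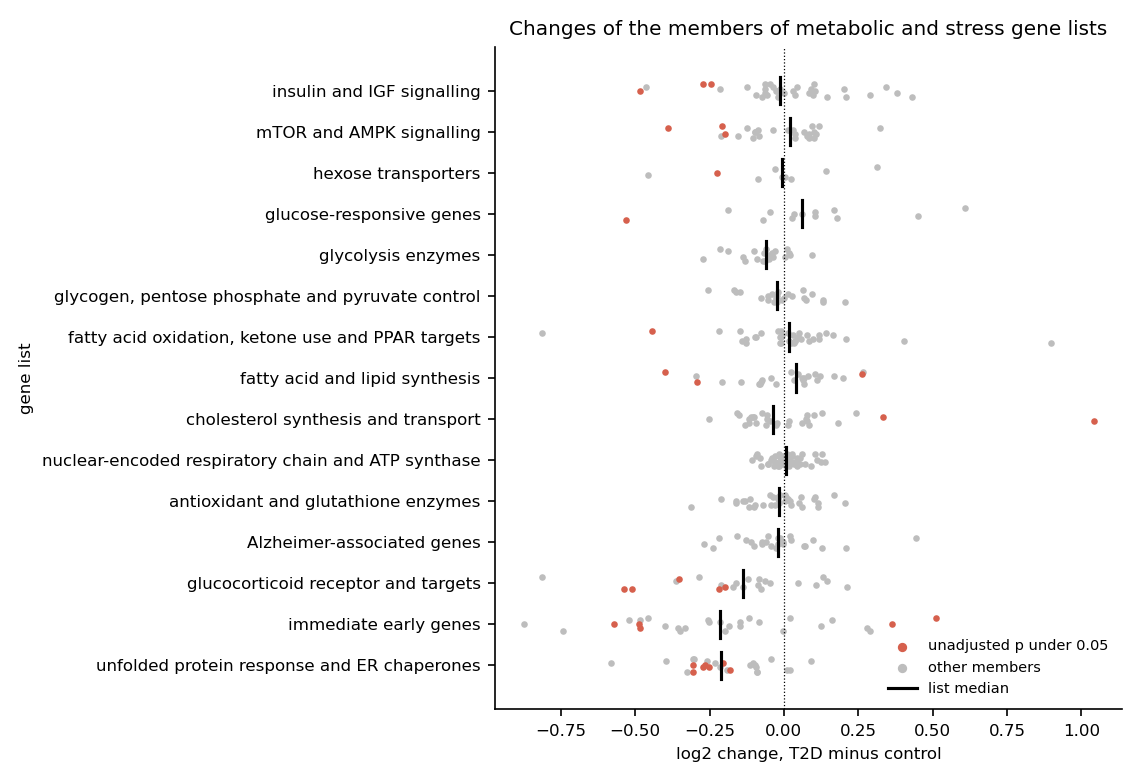
Log2 change (x axis, T2D minus control) of every measured member of 15 gene lists (y axis); red points are members at an unadjusted p under 0.05, grey points the others, black bars the list medians. The medians of metabolic lists sit between −0.06 and 0.06, and those of glucocorticoid targets (−0.14), immediate early genes (−0.22) and ER chaperones (−0.21) lie to the left.

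Genes of the unfolded protein response and ER chaperones, which fold secreted and membrane proteins, were lower in T2D more often than not, and none passed. Of 26 measured members 23 had a negative change and 7 were at an unadjusted p under 0.05, all lower, where 2.87% of all genes were. The median was −0.21, with a range over libraries of −0.40 to 0.03 in T2D and −0.23 to 0.16 in control for the mean log2 level of the list relative to the control mean (its score). Dnajc3, a co-chaperone of the ER lumen, was at 58.2, 62.7 and 78.6 CPM in T2D and 67.5, 81.8 and 89.7 CPM in control (log2 −0.27). Pdia3, a disulfide isomerase, had −0.20 and the ER stress sensor Atf6 −0.31 (−0.15 without T2D 3 and T2D 4), while the main chaperone gene Hspa5 was at 174, 215 and 340 CPM against 181.9, 314 and 403 CPM (−0.33, −0.80 to 0.15). The groups overlapped for all 4, though in Atf6 5 T2D libraries lay below every control and T2D 1 above, and the median of the list was −0.17 without T2D 3 and T2D 4. Across the alternatives run, Hspa5 lay between −0.48 and −0.022 and Dnajc3 between −0.33 and −0.15. Cytosolic heat shock genes had a median of −0.13, with 1 of 21 at an unadjusted p under 0.05, the co-chaperone gene Dnajb5 (−0.44).

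The glucocorticoid receptor Nr3c1 and its targets, which mark exposure to stress hormones, had 5 of 23 members at an unadjusted p under 0.05, all lower, where 2.87% of all genes were, and a median of −0.14 (−0.22 without T2D 3 and T2D 4). Nr3c1 itself was at 120, 151 and 175 CPM in T2D and 165, 174 and 186 CPM in control (log2 −0.22, −0.42 to −0.02). Besides Fam107a, the anti-inflammatory target Tsc22d3 had −0.35 (−0.65 to −0.05). The targets most used as a readout differed little, with Fkbp5, a chaperone that dampens the receptor, at 22.3, 26.4 and 35.0 CPM against 18.3, 27.7 and 46.1 CPM (−0.05, −0.46 to 0.36) and Sgk1 at −0.07 (−0.62 to 0.49).

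Immediate early genes, which neurons switch on with activity, varied widely between mice. Of 29 measured members 22 had a negative change, 5 were at an unadjusted p under 0.05 (2 higher, 3 lower), where 5.84% of all genes were, and the median was −0.22. The median was −0.33 without T2D 3 and T2D 4, and it lay between −0.36 without T2D 3 and −0.037 without T2D_control 6 when 1 library was left out. Arc, an effector of synaptic plasticity, ranged from 74.6 to 166 CPM in T2D (median 99.4) and from 78.1 to 459 CPM in control (median 178), with a log2 change of −0.87 (−1.81 to 0.07). Fos ranged from 11.5 to 35.8 CPM and from 7.44 to 46.3 CPM (−0.35, −1.21 to 0.51). Bdnf, the main cortical neurotrophin, was at 19.4, 25.4 and 34.0 CPM against 20.8, 39.5 and 66.3 CPM (−0.57, −1.07 to −0.08), whereas Jun (0.36) and the orphan nuclear receptor gene Nr4a2 (0.51, and 0.26 without T2D 3 and T2D 4) were higher at an unadjusted p under 0.05. For Arc, Fos and Bdnf the highest control exceeded the highest T2D library, and the groups overlapped. Their log2 changes depended on the fit, from −1.04 to −0.23 for Arc, −0.58 to −0.047 for Fos and −0.80 to −0.21 for Bdnf over the alternatives run.

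Among clock genes 4 of 22 were at an unadjusted p under 0.05, 2 higher and 2 lower, where 5.84% of all genes were. Dbp, an output factor of the clock, was at 34.4, 48.9 and 66.9 CPM in T2D and 28.8, 32.5 and 50.3 CPM in control (log2 0.47, 0.12 to 0.82), and Per2, a core repressor, had −0.26 (−0.70 to 0.18). The time of day of collection is not given in the sources used here. Of 24 measured receptors and peptides of appetite and adipokine signalling, 3 were at an unadjusted p under 0.05, again beside 5.84% of all genes. Lepr, the leptin receptor, was at 3.46, 5.97 and 8.22 CPM against 2.77, 3.62 and 4.72 CPM, with 4 of 6 T2D libraries above every control (0.65, 0.18 to 1.12). The cholecystokinin receptor gene Cckbr had −0.40 and the somatostatin receptor gene Sstr2 −0.42.

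Genes of synapses and of Alzheimer disease, a condition for which diabetes is a known risk factor, had list medians near 0. Of 27 Alzheimer-associated genes 8 changes were positive and 19 negative, 0 were at an unadjusted p under 0.05, the median was −0.02, and 23 intervals lay within 1.5-fold. App had a log2 change of −0.03 (−0.22 to 0.17), Mapt, which encodes tau, −0.06 (−0.20 to 0.08), and the insulin- and amyloid-degrading enzyme gene Ide −0.13 (−0.31 to 0.05). Of 27 synaptic vesicle genes, 17 GABA receptor genes and 27 postsynaptic genes, 24, 16 and 24 intervals lay within 1.5-fold, with medians of −0.02, −0.01 and 0.01. Homer1, whose short form is activity-induced, was the only member of these 3 lists at an unadjusted p under 0.05 (−0.48).

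Microglia markers were lower in T2D in 18 of 19 genes, and none passed. Their median log2 change was −0.37, and 5 were at an unadjusted p under 0.05, all lower, where 2.87% of all genes were. C1qa, C1qb and C1qc form the complement component that tags synapses and debris, and microglia make nearly all of it in the brain. C1qc was at 10.46, 13.5 and 23.1 CPM in T2D and 15.97, 20.4 and 22.6 CPM in control (log2 −0.45 ± 0.16), with 5 T2D libraries below every control and T2D 3 above every control. C1qa was at 13.7, 17.2 and 31.4 CPM against 19.9, 26.3 and 33.003 CPM (−0.45 ± 0.18), and Csf1r, the survival receptor of microglia, was at 30.2, 37.0 and 61.1 CPM against 43.9, 58.7 and 72.9 CPM (−0.50 ± 0.19).

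The homeostatic microglial genes had smaller values, with P2ry12 at −0.25 (−0.64 to 0.15), Tmem119 at −0.20 (−0.57 to 0.17) and Cx3cr1 at −0.15 (−0.46 to 0.17). With RIN as a covariate P2ry12 was at 0.014. Among all alternatives run, the value closest to 0 was −0.046 for Tmem119, −0.026 for Cx3cr1 and −0.28 for C1qa. The list score was −0.61 to −0.31 in 5 T2D libraries and 0.29 in T2D 3, and −0.49 to 0.35 in the controls, so the groups overlapped. Without T2D 3 and T2D 4 the median was −0.46 and C1qa stood at −0.64, and still 0 genes of the table passed. In tissue RNA, fewer cells of a type and less RNA per cell cannot be told apart.

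Astrocyte and oligodendrocyte markers differed little, with medians of 0.00 (18 genes) and −0.06 (20 genes), and all 20 myelin genes had an interval within 1.5-fold. Gjb6, a gap junction gene of astrocytes, was at 17.5, 24.8 and 34.6 CPM in T2D and 30.1, 37.1 and 48.6 CPM in control (log2 −0.57, −0.93 to −0.21). Gfap, the filament gene that reactive astrocytes raise, was at 39.1, 57.8 and 111 CPM against 44.6, 56.8 and 61.1 CPM. Its log2 change of 0.30 turned to −0.11 without T2D 3 and T2D 4, which held the 2 highest values (87.7 and 111 CPM). Endothelial markers had a median of 0.02 with 0 of 20 at an unadjusted p under 0.05. Pericyte and smooth muscle markers had a median of 0.19, with the smooth muscle myosin gene Myh11 at 0.76 (0.27 to 1.26) and the aminopeptidase gene Anpep at 1.23 (0.41 to 2.04), both at an unadjusted p under 0.05. Within T2D, this list and the meningeal list both had their highest score in T2D 4 and the next in T2D 5. The meningeal score was 1.03 in T2D 4 and 0.51 in T2D 5 against −0.20 to 0.15 in control. Among the controls, T2D_control 4 had the lowest pericyte and smooth muscle score (−0.24) and the highest meningeal score (0.15). The part of meningeal tissue in the values of Myh11 and Anpep was not tested.

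Cytokine genes were low: of 31 listed, 10, among them Il1b, Il6, Tnf and Ccl2, are not in the table. Of the 21 measured, Stat3, the transcription factor of cytokine receptors, was at an unadjusted p under 0.05 (log2 0.19, 0.02 to 0.37), and the median was −0.03. The 22 measured interferon and MHC class I genes had a median of −0.10 (−0.20 without T2D 3 and T2D 4), with H2-T23 at −0.46 (−0.90 to −0.02), and at −0.28 without these libraries. Ptprc, the leukocyte antigen CD45, was the 1 measured of 12 blood leukocyte genes and was at 3.55, 4.89 and 5.87 CPM in T2D and 3.78, 5.47 and 8.50 CPM in control.

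Markers of neighbouring brain regions and of the choroid plexus had list medians from 0.39 to 0.96. The 4 measured choroid plexus genes had a median of 0.52 (0.28 without T2D 3 and T2D 4), with a score from −0.62 to 2.87 in T2D and −2.29 to 3.38 in control. The 20 striatal projection neuron markers had a median of 0.52 and 0 at an unadjusted p under 0.05. The median was 1.04 without the 3 libraries of highest Ttr and −0.0035 with the striatal and olfactory scores as covariates. The striatal score is the mean of this same list, so a median near 0 in that fit was fixed in advance. Drd1, the dopamine receptor of the direct pathway, ranged from 15.3 to 152 CPM in T2D (median 108) and from 26.6 to 108 CPM in control (median 61.9). Drd2, that of the indirect pathway, ranged from 3.12 to 44.4 CPM (median 30.5) and from 4.84 to 41.0 CPM (median 17.5), and the adenosine receptor gene Adora2a, which is expressed with Drd2, from 9.24 to 64.7 CPM (median 54.3) and from 7.16 to 66.2 CPM (median 25.7). The striatal score was 0.62 to 1.101 in 5 T2D libraries and −1.34 in T2D 4, and in the controls it reached from −1.13 in T2D_control 6 to 1.003 in T2D_control 3.

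Olfactory bulb markers had a median of 0.96 over 7 measured genes. Of these, 3 (Cdhr1, Th and Doc2g) were at an unadjusted p under 0.05, all higher, where 2.97% of all genes were. Without T2D 3 and T2D 4 the median was 0.17, Cdhr1 went from log2 1.91 to 0.76 and Th from 1.35 to 0.55, and Doc2g, at 34.1 CPM in T2D 3 and 3.88 or less elsewhere, went from log2 1.68 to 0.050. The median was 1.51 without the 3 libraries of highest Ttr. The thalamic and hypothalamic list had a median of 0.39 (0.067 without T2D 3 and T2D 4, and 0.17 without the 3 of highest Ttr). In it the hypothalamic peptide gene Trh was at 2.11, 7.28 and 9.10 CPM in T2D and 0.555, 1.41 and 4.20 CPM in control (1.50, 0.46 to 2.53), and Prkcd, a kinase of thalamic neurons, reached 56.5 CPM in T2D 4. Inhibitory neuron markers had a median of 0.22, which was 0.45 without the 3 libraries of highest Ttr and 0.045 with the scores as covariates. This list shares Tac1 with the striatal list and Calb2 with the olfactory list, so those covariates are not independent of it. Reln, the extracellular glycoprotein of superficial interneurons, was at 162, 169 and 205 CPM against 111, 131.4 and 166 CPM (0.40, 0.17 to 0.64).

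Cortical excitatory markers had a median of −0.09, and T2D 3 had the lowest score of all (−0.81). The median was −0.39 without the 3 libraries of highest Ttr, and between −0.27 and −0.029 when 1 library was left out, with the ends given by T2D 1 and T2D 3. Neurod6, a transcription factor of cortical projection neurons, was at 15.6, 47.6 and 58.8 CPM in T2D and 46.2, 76.6 and 85.9 CPM in control (log2 −0.68, −0.51 without T2D 3 and T2D 4). With the striatal and olfactory scores as covariates 0 genes passed. With them the change of Neurod6 was −0.35 and that of Reln 0.41.

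**Figure D4:**
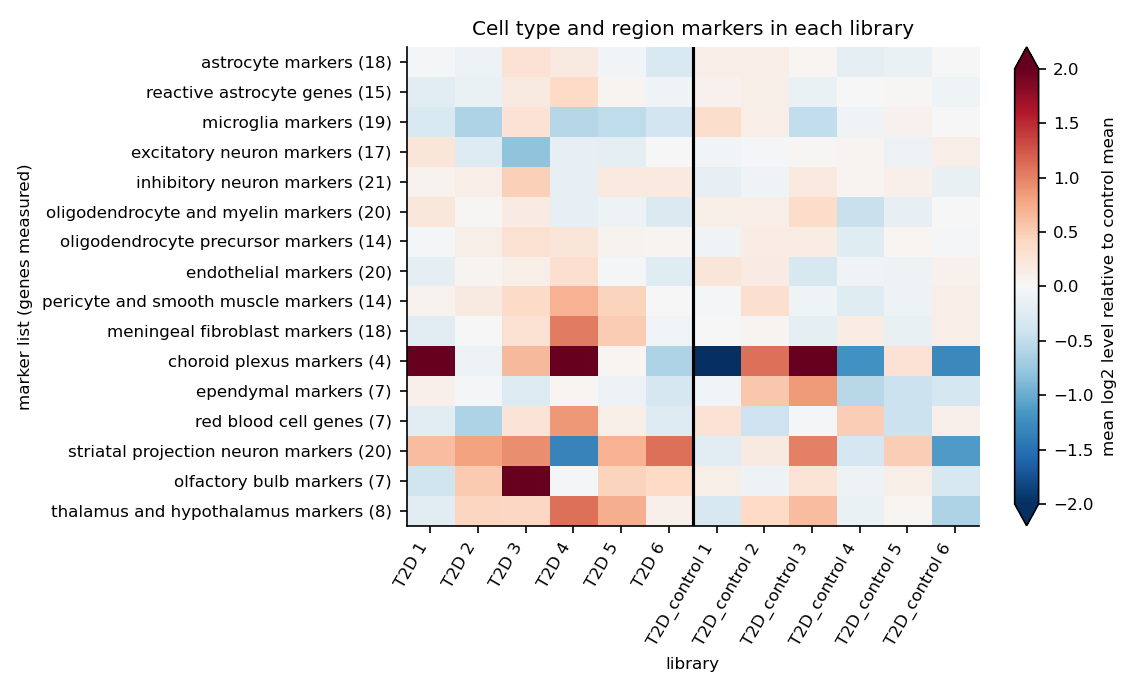
Mean log2 level of each marker list relative to the control mean (colour, limited to −2 to 2) in the 6 T2D and 6 control libraries (x axis), with the number of measured genes behind each list (y axis). T2D 3 is high in olfactory bulb markers (2.502), T2D 4 is low in striatal markers (−1.34), and choroid plexus markers are high in T2D 1, T2D 4 and T2D_control 3.

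The last comparison asked where the change with T2D differed from that with CSS, each against its own controls, so that the cohorts share no control. The stressed cohort has 8 mice a group and differs in age, and within it 683 of 15097 genes (4.52%) passed. Of these, 682 are in the T2D table, and 45 of them (6.60%) were at an unadjusted p under 0.05 in T2D, beside 5.84% of all genes. The change with T2D had the sign of that with CSS in 385 of the 682, and the share over all genes is not given here. The median CSS change of these genes was 0.3003 log2 units in size and their median T2D change, counted toward the CSS direction, was 0.017, with a median 95% half-width of 0.209. For 493 the CSS value lay outside the T2D interval. These genes were chosen for their CSS change, and the spread of the CSS values is left out here. So 493 does not count genes that differed between the cohorts. List medians of the cohorts were alike in some lists and of opposite sign in others, and their difference was not tested. The microglia markers had a median log2 change of −0.34 with CSS and −0.37 with T2D, and the meningeal markers 0.48 and 0.35. The immediate early genes had 0.20 with CSS and −0.22 with T2D, the ER chaperone list 0.03 and −0.21, and the striatal markers −0.22 and 0.52. The difference between the T2D and CSS changes of each gene is tested next.

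In the fit over all 28 libraries, the T2D change minus the CSS change passed in 12 of 14888 genes (0.0806%), all at an adjusted p of 0.0485 in edgeR. The difference was positive in 5 (0.0336%) and negative in 7 (0.0470%). Igsf9b, an adhesion protein of inhibitory synapses, had a log2 change of −0.40 with T2D and 0.38 with CSS (difference −0.77, 95% interval −1.08 to −0.45), and it was at 174, 198 and 247 CPM in T2D and 227, 253 and 342 CPM in control. Spred1, an inhibitor of Ras-ERK signalling, had −0.25 and 0.36 (difference −0.60). Dnajc3 had −0.27 and 0.28 (−0.54), Cdh19, a cadherin of glial lineages, −0.35 and 0.38 (−0.72), Sgsm1 −0.21 and 0.42 (−0.63) and 9330159F19Rik −0.17 and 0.33 (−0.49). Snora74a, a small nucleolar RNA, had −0.51 and 0.62 (−1.12), and all its bases lie in another annotated gene on the same strand, so its value is uncertain.

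On the other side, Gpr12, an orphan receptor of neurons, was at 12.2, 16.2 and 17.8 CPM in T2D and 8.37, 11.8 and 14.3 CPM in control, with a log2 change of 0.44 with T2D and −0.30 with CSS (difference 0.74, 0.43 to 1.06). C2cd2l, a lipid transfer protein at contacts of the ER with the cell membrane, had 0.12 and −0.37 (0.50), and the actin regulator Coro1b 0.097 and −0.30 (0.40). Sh3bgrl2 had 0.44 and −0.10 (0.55). The CSS change by itself passed in each of the genes given here except Sh3bgrl2.

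These calls were not stable. The count was 0 in 19 of the 28 fits that left out 1 library and outside 1.5 times the count of 12 in 25 of them, each gene kept its call in 3 to 8 of the 28, and 0 passed with the RIN as a covariate, while DESeq2 called 130. The 3 fits that stayed near it left out CSS 4, CSS 7 or CSS_control 8, and the highest counts were 32 without T2D 6 and 31 without T2D_control 3.

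**Figure D5:**
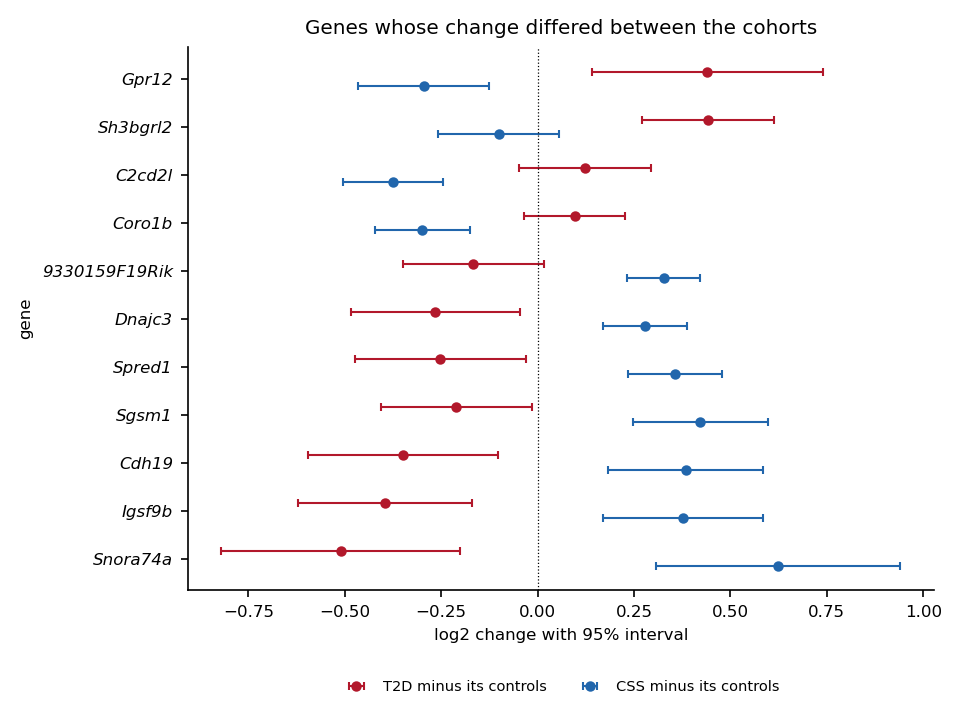
Log2 change (x axis) with its 95% interval of 11 genes whose change differed between the cohorts (y axis), for T2D against its 6 controls (red, 6 libraries) and CSS against its 8 controls (blue, 8 libraries). Red and blue lie on opposite sides of 0 for these genes, which were selected for this difference.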

How the data were processed

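Total RNA of frontal cortex, depleted of ribosomal RNA and made into stranded libraries per the labels' protocols, was measured in 12 mice of the T2D cohort and 16 of the CSS cohort. The authors deposited estimated counts per gene, made with Salmon 1.1.0 on mm10 per the submitters' processing notes, one table per cohort. The deposited genes all reached at least 1.01 CPM in 6 libraries. Counts were rounded and fitted in edgeR 4.0.16 (R 4.3.3) with TMM scaling and robust quasi-likelihood tests. The default low-count filter removed 0 genes, and p was adjusted over all genes by Benjamini-Hochberg at 0.05. CPM are TMM-scaled. Library values were compared by two-sided exact permutation tests (smallest possible p = 0.00216). limma 3.58.1, DESeq2 1.42.0 and sva 3.50.0 gave alternatives, and the edgeR code was tested on simulated data. The T2D change minus the CSS change was tested in 1 fit over 28 libraries and the 14888 genes of both tables. The labels describe separate mice. Depth limits precision as the interval of each gene gives it.

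The genes named were the 12 of smallest p in each direction at a mean log2 CPM of at least 1 (predicted gene models left out), the 3 of smallest p in each of 48 lists, a fixed set of insulin, glucose, lipid, stress and cell type genes, and the genes that passed the contrast. Besides these, 16 genes were chosen for their role after their values were seen (Igf1, Akt1, Akt2, Foxo1, Tbc1d4, Mtor, Hk2, Ldha, Cpt1a, Apoe, Drd1, Drd2, Adora2a, P2ry12, Tmem119 and Cx3cr1). Members and lists were chosen with earlier results of these data known. Coordinates and overlaps come from GENCODE M21, which held 99.8% of the identifiers, and 41 identifiers share a symbol with another. Figures were drawn with matplotlib 3.10.9. A few genes that entered every fit and count are not reported here by name.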

Additional observations from a re-analysis of the deposited data

Results flagged for a closer look

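In 19 of 230 groups of 6 values 1 library lay far from the other 5 (Dixon's ratio of its gap to the group's range, at the 95% limit), where chance gives about 1 in 20. T2D 3 stood high in microglia markers (score 0.288) and olfactory bulb markers (2.502), and in the level of Sh3bgrl2 (46.4 CPM), Fam107a (273), Pdk4 (9.62) and C1qa (31.4). T2D 4 stood low in striatal markers (−1.34). T2D 1 stood apart in glycolysis enzymes (0.147), the nuclear-encoded respiratory chain (0.277) and nuclear-retained RNAs (−0.618), and T2D 6 in Cbwd1 (13.1 CPM). Among the controls, T2D_control 4 was low in hexose transporters (−0.130) and T2D_control 2 in fatty acid oxidation genes (−0.0552). T2D_control 6 was high in Igsf9b (342 CPM), Irs1 (44.3) and Slc2a1 (57.2). T2D_control 3 was high in Insr (109) and Ttr (293) and low in Cbwd1 (11.9).

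The change with T2D differed from that with CSS in 12 genes, by the test of the difference itself (edgeR, adjusted p = 0.0485 for each). Of these, 11 are given. The log2 differences were −0.49 in 9330159F19Rik, −0.60 in Spred1, −1.12 in Snora74a, −0.77 in Igsf9b, −0.72 in Cdh19, −0.54 in Dnajc3, −0.63 in Sgsm1, 0.50 in C2cd2l, 0.40 in Coro1b, 0.55 in Sh3bgrl2 and 0.74 in Gpr12.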

How the results depend on the processing

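The count of 0 genes held in every edgeR and limma alternative run; DESeq2 called 4. Leaving out 1 library at a time gave 0 to 0 calls, with a smallest adjusted p of 0.0743 to 0.9996. Unadjusted p under 0.05 was reached by 460 genes with RIN as a covariate, 2486 without the 3 libraries of high Ttr (chosen after seeing the data), 1330 with all 28 libraries in 1 fit, and 554 to 1817 without 1 library. The contrast with CSS gave 130 genes with DESeq2, 0 with RIN, and 0 to 32 without 1 library. The labels do not say whether same-numbered libraries are paired. The correlations of same-numbered libraries were −0.014 to 0.135, and 0 of 6 libraries correlated best with its own number. With 6 pairs this cannot decide whether the mice were paired. With the replicate block the T2D test called 0 genes and the contrast 32. The inhibitory neuron median was 0.45 without the high-Ttr libraries. Without 1 library the group difference was −1.12 to 0.788 M in total counts, −0.490 to −0.230 in RIN, −25.5 to −14.9 in PC1 and −6.10 to 6.22 in PC2. The unadjusted exact permutation p was under 0.05 in 1 of these comparisons for RIN and in 2 for PC1.

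These log2 changes, none past the threshold, turned sign; the cause was not tested. Without T2D 3 and T2D 4 (chosen after seeing the data): Hba-a2 −0.18, Hba-a1 −0.25, Prkcd −0.16, Irs1 −0.12, Angptl4 −0.28, Gfap −0.11, App 0.045, Igf1 −0.092, Cpt1a −0.063 and Apoe −0.049. Without the high-Ttr libraries: Ttr −1.76, Hba-a1 −0.039, Irs1 −0.0061, Angptl4 −0.064 and Fkbp5 0.082. With striatal and olfactory scores as covariates (also chosen after seeing the data): Gng7 −0.037, Doc2g −0.23, Angptl4 −0.12, App 0.055, Igf1 −0.075, Apoe −0.0012, Drd1 −0.18 and Drd2 −0.13. Gng7, Doc2g, Drd1 and Drd2 belong to the lists that make these scores, so the loss of their change follows from the covariates. With RIN: Slc2a1 0.00057, Txnip 0.038, Pdk4 0.087, Sgk1 0.25 and P2ry12 0.014. With T2D 1 to 4 only: Slc2a3 −0.037, Mbp 0.030 and Hbb-bt 0.11. With the replicate block: Ttr −0.54 and Fkbp5 0.0015. With limma voom: Angptl4 −0.0066.

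Leaving out 1 library turned the sign of 18 genes, over these ranges: Hba-a2 −0.030 to 0.42, Hba-a1 −0.079 to 0.36, Bpgm −0.023 to 0.096, Prkcd −0.046 to 0.74, Irs1 −0.043 to 0.11, Igf1r −0.0027 to 0.066, Slc2a1 −0.13 to 0.0016, Slc2a3 −0.048 to 0.054, Txnip −0.14 to 0.031, Pdk4 −0.20 to 0.026, Angptl4 −0.16 to 0.23, Fkbp5 −0.15 to 0.14, Sgk1 −0.23 to 0.16, App −0.10 to 0.027, Hbb-bt −0.38 to 0.15, Igf1 −0.086 to 0.16, Cpt1a −0.00040 to 0.12 and Apoe −0.0062 to 0.21.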
